A study of Mus musculus with 49 samples.

Results

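The 7 genes examined here carry the liver's glucose production and its response to glucagon: Gcgr, Ppargc1a, Pcx, Pck1, Fbp1, G6pc and Gpt. They were chosen by name, with earlier results of these data known. Each was found as 1 row of the deposited table of unique molecular identifier (UMI) counts through its Ensembl identifier, so they are 7 of 46078 rows. Glucagon, released by the pancreas in fasting, binds the receptor Gcgr on hepatocytes and raises cyclic AMP, which switches on the gluconeogenic enzymes through the factor CREB and the coactivator PGC-1α, the product of Ppargc1a. Gluconeogenesis then builds glucose from lactate and amino acids. Alanine aminotransferase (Gpt) turns alanine into pyruvate, pyruvate carboxylase (Pcx) makes oxaloacetate from it, the cytosolic phosphoenolpyruvate carboxykinase (Pck1) commits that oxaloacetate to the pathway, and fructose bisphosphatase (Fbp1) and the catalytic subunit of glucose phosphatase (G6pc) complete the last steps, the latter releasing free glucose from the hepatocyte. The pathway is a property of the mature hepatocyte, and to a lesser degree of kidney and small intestine.

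RNA was measured by CEL-Seq2, which counts the 3′ ends of transcripts with UMIs, in 49 libraries of 16 conditions, all from wild-type C57BL/6J mice. Freshly isolated hepatocytes (FH, n = 3) came from the livers of mice aged 10 weeks by collagenase digestion and repeated centrifugation. Hepatocytes of the same source were grown as a monolayer in medium with EGF (20 ng/mL) and sampled at 6 times from 3 h to 2 weeks after plating (n = 3 at each time), or grown for 1 week with verteporfin (0.3 µM), an inhibitor of the coactivator YAP, or with its solvent DMSO (n = 2 each). dediHeps (n = 5) are the dedifferentiated, expandable cells that such cultures become on passaging. They were also sampled as aggregates in low-attachment wells (n = 3), as spherical organoids in Matrigel (dediHep-SOs, n = 3), and as budding organoids after transduction with the intestinal factor Cdx2 (dediHep-BOs, n = 3). The remaining groups were CLiPs (n = 3), progenitor-like cells that hepatocytes form with a mixture of small molecules, spherical organoids of intestinal progenitor cells from E13.5 embryos (FIPC-SOs, n = 3) and budding organoids of adult intestinal stem cells, from mice aged 10 weeks (ISC-BOs, n = 4). The labels tie some aggregates and dediHep-SOs to named dediHep cultures, but do not say that all libraries of a group came from separate animals, so the p-values below measure the spread between these libraries.

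The libraries held 861047 to 3872936 UMI counts, with a median of 1976760. Levels are given as CPM (counts per 1e+06 counts) scaled by TMM, and because each library reports 3′ ends they are compared within a gene and not between genes. At these depths 3 counts in a library correspond to 0.63 to 4.11 CPM. The 6-base UMI allows at most 4096 molecules of a gene in a library, and the largest counts reached that limit, so the levels of the most abundant genes are compressed. All 7 hepatocyte markers were counted in every FH library, and their sum ran from 17800 to 24770 CPM in FH, from 1780 to 2424 CPM after 2 weeks of culture, from 1070 to 4766 CPM in dediHeps and from 8921 to 13430 CPM in their aggregates. Alb was at 0 counts in all dediHep-SO, dediHep-BO and FIPC-SO libraries, while Cdx2 was at 0 in all fresh, cultured and CLiP hepatocytes and averaged 46.5 CPM in dediHeps, 87.4 CPM in dediHep-SOs and 240.3 CPM in dediHep-BOs. CLiP replicate 3 stood apart from the other two, with hepatocyte markers at 8487 CPM against 1974 and 2163 CPM.

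In the mouse genome (GRCm38, GENCODE M21) the genes lie apart from each other except that G6pc (chr11:101367561-101377903) and Gcgr (chr11:120530699-120538986) share a chromosome. Pck1 is at chr2:173153048-173159273, Ppargc1a at chr5:51454250-51567726 on the minus strand, Fbp1 at chr13:62864753-62888282 on the minus strand, Gpt at chr15:76695716-76699686 and Pcx at chr19:4510472-4621752. All 7 are protein coding. Pcx has the gene Lrfn4 on the opposite strand within its bounds (123 counts over the 49 libraries), and Gcgr overlaps the antisense gene Gm11789 (711 counts). Ppargc1a overlaps Gm42614 (52 counts), Gm42615 (56 counts) and Gm43605 (11 counts) on its own strand and Gm42613 (4 counts) on the opposite one. Whether the counting used strand is not given in the sources used here, so these genes may share reads with the members.

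The promoters of 3 members are shown because glucagon reaches its target genes through the cyclic AMP response element, TGACGTCA, and its shorter core, TGACG. The bases before the start of Pck1, the gene that fell furthest by the first day of culture, and of Ppargc1a, whose course differed from the other 6, are printed 5′ to 3′ on the gene's own strand from RefSeq sequence (GRCm38.p6), with this core in capitals. It is read as CGTCA here because it lies on the opposite strand. That of Pck1 is chr2:173152823-173153047 (plus strand, 225 bases) and that of Ppargc1a chr5:51567727-51567975 (minus strand, 249 bases). The other, of Gcgr at chr11:120530477-120530698 (plus strand, 222 bases), is the receptor gene and holds neither motif.
Pck1: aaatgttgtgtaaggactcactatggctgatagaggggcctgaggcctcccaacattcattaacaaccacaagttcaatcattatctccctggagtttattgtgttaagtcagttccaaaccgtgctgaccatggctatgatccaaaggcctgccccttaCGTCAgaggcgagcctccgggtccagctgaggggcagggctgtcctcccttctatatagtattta
Ppargc1a: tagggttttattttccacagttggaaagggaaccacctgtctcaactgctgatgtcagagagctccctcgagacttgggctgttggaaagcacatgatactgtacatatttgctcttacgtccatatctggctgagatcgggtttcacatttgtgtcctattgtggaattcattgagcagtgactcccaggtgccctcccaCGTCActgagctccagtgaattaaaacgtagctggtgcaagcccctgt
Gcgr: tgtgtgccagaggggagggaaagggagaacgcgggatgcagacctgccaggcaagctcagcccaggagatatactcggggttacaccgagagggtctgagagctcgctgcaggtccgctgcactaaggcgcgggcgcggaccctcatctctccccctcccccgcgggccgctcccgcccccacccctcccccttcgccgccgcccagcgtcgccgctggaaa
The core in Pck1 spans bases 90 to 86 before the RefSeq start, and that in Ppargc1a bases 49 to 45. Promoters were listed for 6 of the 7 genes, Gpt having no entry, and Pcx has 2 starts. In the 250 bases before each start, searched on both strands, no member held the full element and only Pck1 and Ppargc1a held the core. Of 32817 promoters in the table, 1.55% held the full element and 17.7% the core, which lies within the full element wherever that occurs. A match is a run of letters and was not tested for binding.

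Across the 16 conditions 6 genes shared the conditions of their highest levels and Ppargc1a did not. Pck1, G6pc, Fbp1, Pcx, Gcgr and Gpt were highest in FH and in hepatocytes 3 h after plating, and the mean levels of each in every other condition lay below those of both. Among the other conditions these 6 genes parted. In aggregates the mean was 58.5% of FH for Gpt, 44.3% for Gcgr and 33.6% for Pcx. It was 6.0% for G6pc, 0.299% for Fbp1 and 0.0082% for Pck1. Ppargc1a was highest in FH but next highest in ISC-BOs, dediHeps and their aggregates, and lowest in hepatocytes cultured for 1 day to 2 weeks. Over the condition means of log2(CPM + 1), the Pearson correlations between pairs of the other 6 genes ran from 0.687 to 0.935, and those of Ppargc1a with them from 0.098 to 0.457 (n = 16 conditions, which share their libraries and depth among the genes). These are descriptions and carry no test. When conditions were ordered by level, neighbours overlapped in range in 11 to 14 of 15 neighbouring pairs, according to the gene.

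**Figure D1:**
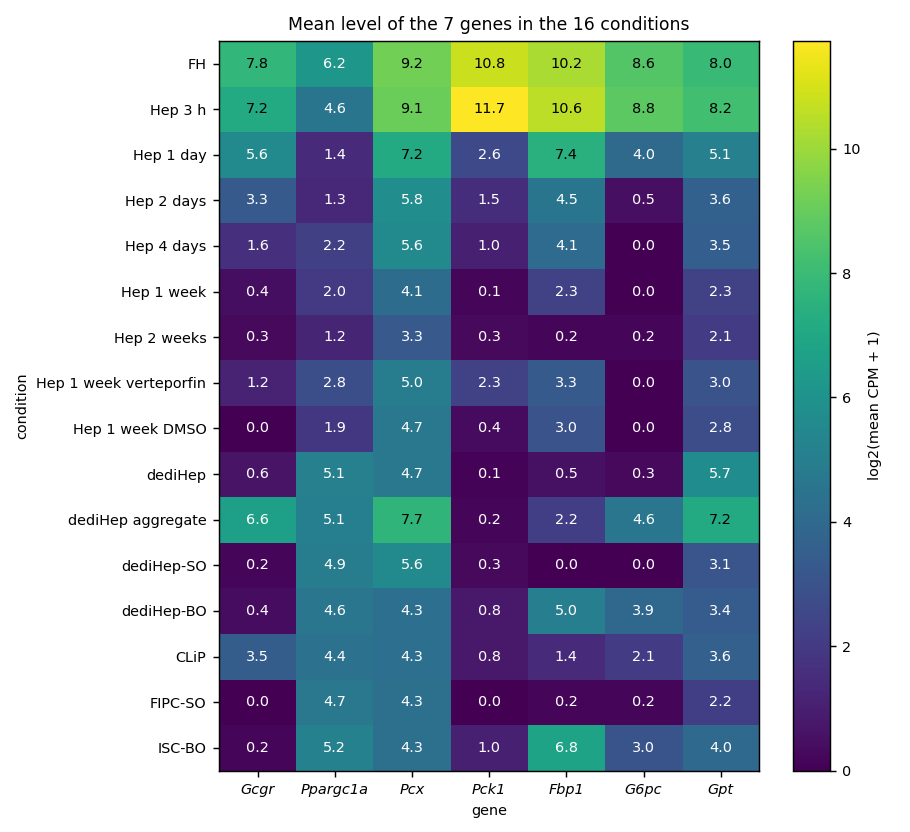
Mean level of the 7 genes (columns) in the 16 conditions (rows), as log2(mean TMM-scaled CPM + 1), with the value in each cell. Pck1 averages 1764 CPM in FH and at most 5.01 CPM in any condition other than FH and 3 h, while Ppargc1a averages 33.9 CPM in dediHeps and 34.6 CPM in ISC-BOs.

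Among 14709 genes with enough counts, the genes whose condition means resembled those of Pck1 most were Dpys (Pearson r = 0.992), a liver enzyme of pyrimidine breakdown, Gm4956 (0.991) and Sntg2 (0.989). For G6pc they were Cyp3a25 (0.975), Cyp2d12 (0.974) and Cyp3a63-ps (0.969), of the cytochrome P450 families. For Fbp1 they included Sepsecs (0.959) and the alcohol dehydrogenase Adh4 (0.937). Pcx was followed by Prdx4 (0.965), Etnk2 (0.958) and Mpc1 (0.948), the last a subunit of the carrier that brings pyruvate to the compartment where Pcx acts. Gcgr was followed by the bile acid ligase Slc27a5 (0.988), the asialoglycoprotein receptor Asgr1 (0.986) and plasminogen, Plg (0.983). Gpt was followed by Gchfr (0.968), Gm4737 (0.965) and Ttc36 (0.963). For Ppargc1a the likest genes were Madd (0.921), Akr1c19 (0.921) and Efna1 (0.914).

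The time course asks how the genes change as hepatocytes adapt to culture, and the test used was edgeR's quasi-likelihood test over FH and the 6 time points, adjusted over 12443 genes. A gene is called when its adjusted p is under 0.1 and its log2 fold change exceeds 2 in size. None of the 7 genes was called after 3 h, by edgeR or by DESeq2, with Ppargc1a alone at an unadjusted p under 0.05, and all 7 were lower than in FH after 1 day, 2 days, 4 days, 1 week and 2 weeks. Of all genes tested, 3.06% were called higher and 3.85% lower at 3 h, 6.57% and 10.9% at 1 day, 9.21% and 12.1% at 2 days, 11.4% and 12.4% at 4 days, 13.2% and 12.8% at 1 week, and 14.1% and 15.3% at 2 weeks. The hepatocyte marker sum was at least 22400 CPM at 3 h and between 7514 and 9732 CPM at 1 day, yet 0 of these 7 markers were called lower than in FH at 1 day. The UMI limit lowers the CPM of capped genes more in deeper libraries. Library totals were 1306474 to 1520584 counts at 3 h and 2099933 to 2297042 at 1 day. The part of that limit in the marker sum, and of the markers in the result, was not tested. In such bulk libraries, fewer cells of a type and less RNA per cell cannot be told apart. Each fit used TMM factors of its own, whose shifts were not computed. The CPM used factors over all 49 libraries. Relative to library totals, these moved log2 ratios of CPM in cultured cells against FH by -0.56 to -0.82, and by 0.10 at 3 h. This shift is common to all genes of a comparison. It was 0.21 for aggregates against dediHeps, 0.18 for dediHep-SOs and 0.18 for ISC-BOs against FIPC-SOs, and under 0.1 in size elsewhere.

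**Figure D2:**
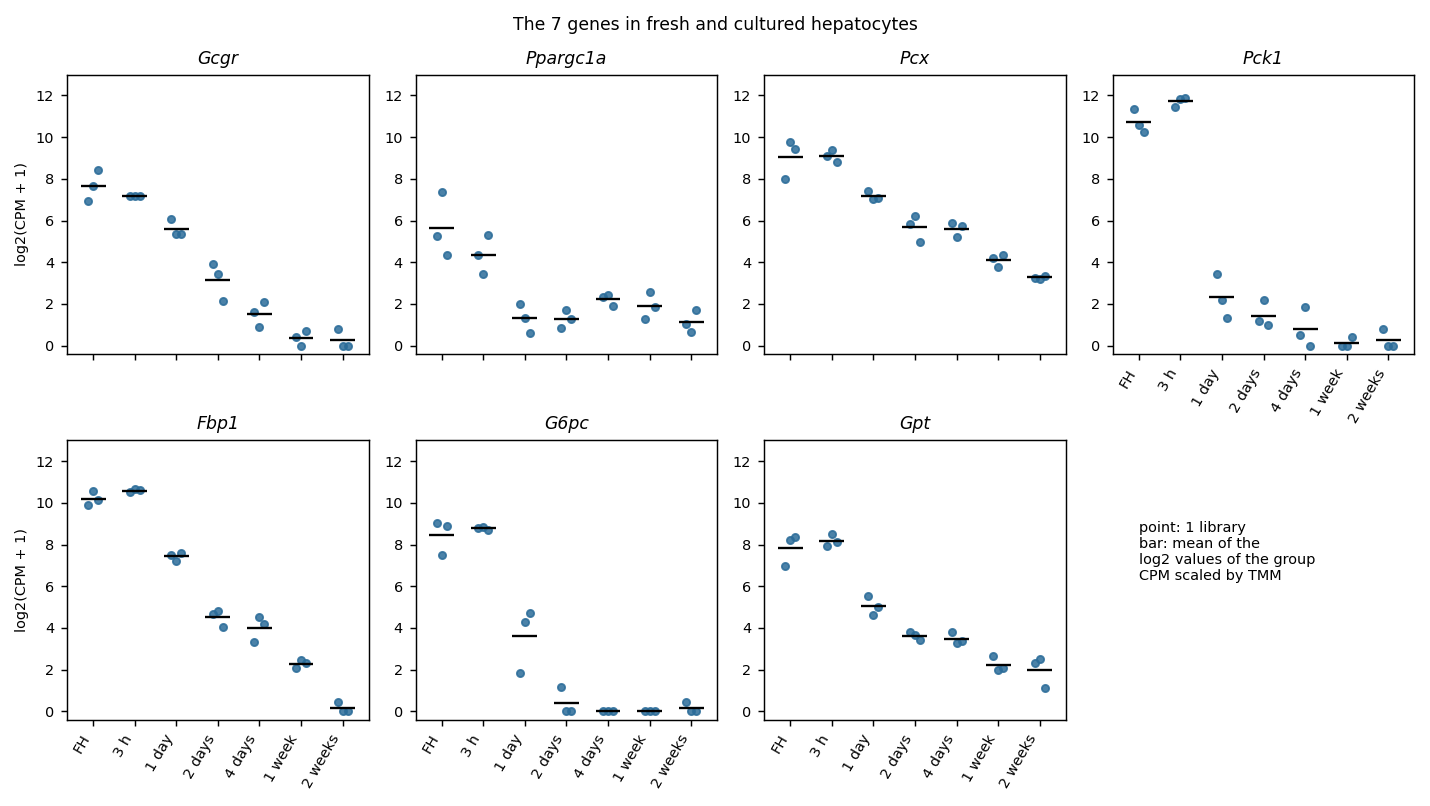
Level of each of the 7 genes as log2(TMM-scaled CPM + 1) in fresh hepatocytes (FH) and after 3 h to 2 weeks of monolayer culture, with 1 point per library (n = 3) and a bar at the mean of the log2 values. The 3 h libraries lie within or near the FH range for most genes, and every 1 day library lies below every FH and 3 h library.

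The receptor gene Gcgr was at 123, 201 and 337 CPM in the FH libraries and at 144, 145 and 144 CPM after 3 h. It then stood at 65.5, 40.3 and 40.2 CPM after 1 day and at 14.0, 9.70 and 3.41 CPM after 2 days. The groups from 1 day on do not overlap with FH, whereas the 3 h libraries lie inside the FH range. The log2 fold change against FH was -0.64 at 3 h (SE 0.43, adjusted p = 0.347) and -2.28 at 1 day (SE 0.45, adjusted p = 0.000415). The call at 1 day rested on FH replicate 3, without which the change of Gcgr was -1.81 (adjusted p = 0.00449), short of the fold threshold. By 1 week 3 Gcgr counts were left in the 3 libraries, and by 2 weeks 2 counts, against 578 in FH. The pooled level at 2 weeks was lower than in FH by a factor of 609 (95% counting interval 168 to 5044).

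Ppargc1a, the coactivator gene, spread most among the fresh libraries, at 37.8, 162 and 19.6 CPM. After 3 h it was at 19.1, 9.91 and 38.4 CPM, a range that overlaps FH, and the log2 fold change was -1.70 (SE 0.64, adjusted p = 0.0872), short of the fold threshold. Without FH replicate 1, FH replicate 3 or 3 h replicate 3 the change of Ppargc1a was -2.02, -2.16 or -2.36 and the gene was called. From 1 day on it was low in every library, at 3.04, 1.51 and 0.508 CPM after 1 day and 1.07, 0.586 and 2.32 CPM after 2 weeks. All libraries from 1 day on lie below the lowest FH library. The change at 1 day was -5.43 (SE 0.78, adjusted p = 1.27e-05) and at 2 weeks -5.93 (SE 0.85, adjusted p = 5.78e-06). The levels at 1 day and 2 weeks rest on 1 to 7 counts a library.

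Pcx, which makes the oxaloacetate that enters the pathway, was at 256, 861 and 680.02 CPM in FH and at 543, 659 and 448 CPM after 3 h, where the groups overlap. It stood at 169, 132 and 135 CPM after 1 day, at 57.3, 36.4 and 51.6 CPM after 4 days and at 8.56, 8.21 and 9.27 CPM after 2 weeks. Each of these later groups lies wholly below FH. The log2 fold change was -2.14 at 1 day (SE 0.38, adjusted p = 0.000127), and -6.14 at 2 weeks (SE 0.47, adjusted p = 4.35e-10). Without FH replicate 2 the 1 day change of Pcx was -1.77 (adjusted p = 0.00146), under the fold threshold.

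Pck1, whose enzyme commits oxaloacetate to glucose, was at 2573, 1514 and 1203 CPM in FH and at 2825, 3612 and 3802 CPM after 3 h, and the 3 h libraries all lay above the FH libraries. The log2 fold change at 3 h was 0.94 (SE 0.47, adjusted p = 0.198), so the groups did not differ past the threshold. Its 3 h counts of 2218 to 3280 approach the UMI limit, and after a correction for repeated UMIs the change of Pck1 was 1.47 (adjusted p = 0.0761), still short of a fold change of 2 on the log2 scale. After 1 day Pck1 was at 9.97, 3.52 and 1.52 CPM. No library of that day comes near the lowest FH library. The mean was 0.284% of that in FH, and the log2 fold change was -8.49 (SE 0.67, adjusted p = 5.07e-09). By 1 week a single count was left in 3 libraries against 4453 in FH, a level lower by a factor of 13830 (95% counting interval 2481 to 546500).

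Fbp1 held at 951, 1525 and 1126 CPM in FH and at 1452, 1603 and 1542 CPM after 3 h (log2 fold change 0.33, SE 0.30, adjusted p = 0.506). It stood at 181, 146 and 191 CPM after 1 day and at 24.8, 26.8 and 15.6 CPM after 2 days. The FH and 3 h ranges overlap, and the later groups lie below both. The change was -2.89 at 1 day (SE 0.33, adjusted p = 5.46e-07) and -5.82 at 2 days (SE 0.38, adjusted p = 2.14e-10). After 2 weeks 1 Fbp1 count was left over the 3 libraries against 3011 in FH, lower by a factor of 6349 (95% counting interval 1139 to 250900).

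G6pc, whose enzyme releases glucose, was at 514, 179 and 478 CPM in FH and at 442, 460.3 and 417 CPM after 3 h (log2 fold change 0.15, SE 0.54, adjusted p = 0.894). After 1 day it was at 2.60, 18.6 and 25.4 CPM, all below FH, with the first library well under the other two. The change was -4.75 (SE 0.64, adjusted p = 1.54e-05). It was at 3, 0 and 0 counts after 2 days and at 0 counts in all 3 libraries both after 4 days and after 1 week. Against 1030 counts in FH, the 0 counts at 1 week put G6pc at least 1067-fold lower, taking 3 counts over the group as the limit.

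Gpt was at 124, 296 and 325 CPM in FH, at 245, 360.1 and 277 CPM after 3 h (log2 fold change 0.22, SE 0.35, adjusted p = 0.733), and at 46.0, 23.7 and 31.5 CPM after 1 day. The last group lies below the others, which overlap. The change was -2.97 at 1 day (SE 0.38, adjusted p = 2.83e-06) and -6.13 at 2 weeks (SE 0.47, adjusted p = 4.76e-10), when the libraries held 11, 8 and 1 counts. The mean level at 1 day was 13.6% of FH for Gpt, 14.4% for Fbp1, 22.1% for Gcgr, 3.98% for G6pc and 2.31% for Ppargc1a. Differences among these shares were not tested.

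The wider pathway was read from lists written from general knowledge, with earlier results of these data known. Their shares and medians are thus descriptions and not independent evidence. Of 22 other gluconeogenic enzymes and transporters tested, of 23 listed, 2 were called higher and 0 lower at 3 h, 1 higher and 10 lower at 1 day, and 2 higher and 15 lower at 2 weeks. The list's median log2 fold change was 0.28 at 3 h, -1.72 at 1 day and -3.59 at 2 weeks, beside -0.07, -0.03 and 0.04 over all genes tested. Tat, which breaks down tyrosine, was at 64.4 to 1416 CPM in FH and 1.52 to 2.52 CPM at 1 day, a change of -8.12 (SE 1.06, adjusted p = 5.65e-06). Sds, which makes pyruvate from serine, rose at 3 h, from 13.7 to 216 CPM in FH to 601 to 1352 CPM (log2 fold change 3.47, SE 0.70, adjusted p = 0.0075). It had no counts at 4 days.

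Pck2, the mitochondrial form of the Pck1 enzyme, moved the other way. Its level was 2.36 to 12.3 CPM in FH and 4.41 to 10.2 CPM at 3 h, and it was 62.4 to 76.3 CPM at 1 day and 34.7 to 56.7 CPM at 2 weeks. The FH and culture ranges do not overlap from 1 day on. The change of Pck2 was 3.27 at 1 day (SE 0.45, adjusted p = 7.62e-06) and 2.71 at 2 weeks (SE 0.46, adjusted p = 4.15e-05), and it was the gene of its list with the largest called rise at each time from 1 day on.

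Of 15 genes of glucagon and cyclic AMP signalling tested, of 18 listed, 1 was called higher at 3 h, 3 lower at 1 day and 5 lower at 2 weeks, and the list's median was -0.17, -0.64 and -0.75. The rise at 3 h was that of Pde4b, a phosphodiesterase that breaks down cyclic AMP, from 67.1 to 89.8 CPM in FH to 831 to 1334 CPM (log2 fold change 3.65, SE 0.48, adjusted p = 3.8e-05). Creb3l3, a liver factor of the CREB family, was at 1026 to 1363 CPM in FH and at 2.35 to 9.64 CPM after 2 weeks (log2 fold change -7.48, SE 0.68, adjusted p = 6.58e-09).

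Of 19 regulators of gluconeogenic transcription, all tested, 2 were called higher and 3 lower at 3 h, 8 lower at 1 day and 11 lower at 2 weeks, with medians of -1.09, -1.68 and -2.41. Igfbp1, listed here though it is a secreted binding protein that insulin represses and not itself a regulator, rose at 3 h. It went from 83.8 to 163 CPM in FH to 1891 to 2167 CPM (log2 fold change 3.98, SE 0.34, adjusted p = 1.23e-07). Ppargc1b, the relative of Ppargc1a, fell at 3 h by 3.48 on the log2 scale (SE 0.64, adjusted p = 0.00135). Nr0b2, which encodes the repressor SHP, held 125 counts in FH and 0 at 1 day.

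Of 11 genes listed for glycolysis, the opposing pathway, 1 was called higher and 1 lower at 1 day, and 4 higher and 5 lower at 2 weeks, with a median of 0.08 at 2 weeks. The list holds Gckr, which encodes the regulatory protein of glucokinase, beside enzymes. Hk1, a hexokinase of many tissues, went from 1.37 to 2.36 CPM in FH to 209.6 to 298 CPM at 2 weeks (log2 fold change 6.91, SE 0.66, adjusted p = 1.44e-08). At 1 day Pkm, the pyruvate kinase of cells other than hepatocytes, rose by 2.03 on the log2 scale (SE 0.47, adjusted p = 0.00184).

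**Figure D3:**
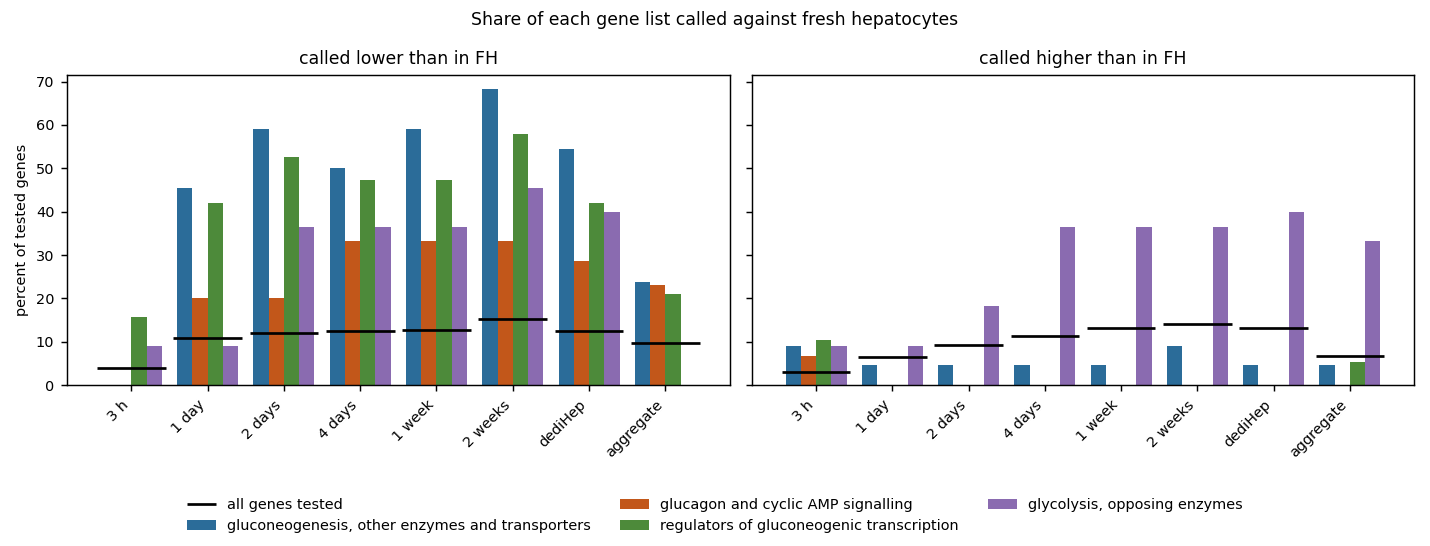
Percent of the tested genes of each of 4 lists called lower (left) and higher (right) than in fresh hepatocytes, in hepatocytes cultured for 3 h to 2 weeks, dediHeps and dediHep aggregates. The black line is the percent of all genes tested, 15.3% lower and 14.1% higher at 2 weeks, when 15 of 22 other gluconeogenic genes were called lower and 2 higher.

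Verteporfin was added to ask whether YAP activity affects hepatocytes in the first week. None of the 3 members that could be tested (Fbp1, Pcx and Gpt) was called by edgeR or had an unadjusted p under 0.05, beside 0.24% of 10400 genes called higher and 0.0288% lower. With verteporfin Fbp1 was at 9.06 and 9.29 CPM, and with DMSO at 6.59 and 7.27 CPM (log2 fold change 0.42, SE 0.45, adjusted p = 0.825). The libraries do not overlap, but the change is within its error. Pcx (34.3 and 26.0 CPM against 19.8 and 30.2 CPM) and Gpt (6.47 and 7.43 CPM against 5.93 and 5.59 CPM) gave 0.29 (SE 0.35, adjusted p = 0.851) and 0.30 (SE 0.49, adjusted p = 0.896).

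Pck1, Ppargc1a, Gcgr and G6pc had too few counts for the verteporfin test. Pck1 held 2 and 11 counts with verteporfin and 0 and 1 with DMSO, a pooled ratio of 13.6 with a 95% counting interval of 2.04 to 578, which covers counting error in 2 libraries a group and not their spread. Ppargc1a held 7 and 12 counts against 4 and 5, a ratio of 2.21 (0.952 to 5.54). Gcgr held 2 and 2 counts against 0 and 0, too few to set a fold, and G6pc had none in any of the 4 libraries. Creb3l3, of the cyclic AMP list, was called higher, at 85.5 to 106 CPM against 10.5 to 10.6 CPM (log2 fold change 3.20, SE 0.33, adjusted p = 0.00713), and it was the only gene called among the 4 lists. With all 49 libraries in 1 fit edgeR called 0 of 14710 genes for verteporfin, with 329 at an unadjusted p under 0.05, so the call of Creb3l3 was lost there.

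dediHeps were compared with FH to ask what the expandable cells retain. Of the 7 genes, 6 were called lower and Ppargc1a was not, beside 13.1% of 11276 genes called higher and 12.6% lower. Ppargc1a was at 34.1, 31.1, 25.7, 33.9 and 44.5 CPM in the 5 dediHep libraries, all within the FH range of 19.6 to 162 CPM. Its log2 fold change was -1.22 (SE 0.56, adjusted p = 0.113), and without FH replicate 2 it was 0.13, so the direction of Ppargc1a rested on that library.

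Pck1, G6pc and Fbp1 held 1, 3 and 5 counts over the 5 dediHep libraries, against 4453, 1030 and 3011 in the 3 FH libraries. The pooled levels were lower by factors of 20520 for Pck1 (95% counting interval 3681 to 810800), 1582 for G6pc (539.9 to 7685) and 2775 for Fbp1 (1188 to 8554). Gcgr held 7 counts, 0 to 4 a library (log2 fold change -8.52, SE 0.67, adjusted p = 3.85e-06). These 4 genes were thus at or near the counting floor in the dediHep monolayers, and none of their libraries overlaps FH.

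Pcx and Gpt differed among dediHep cultures. Pcx was at 2.79, 15.1, 26.6, 49.7 and 28.9 CPM and Gpt at 2.79, 9.54, 67.4, 96.3 and 82.8 CPM in dediHep replicates 1 to 5. The first replicate was the lowest for both genes, and every library lay below the FH libraries. The change against FH was -4.72 for Pcx (SE 0.67, adjusted p = 0.000241) and -2.38 for Gpt (SE 0.81, adjusted p = 0.0381). The call of Gpt was lost without FH replicate 2 (adjusted p = 0.111) or FH replicate 3 (adjusted p = 0.116). The hepatocyte marker sum was 1070 CPM in dediHep replicate 1 and 2400 to 4766 CPM in the other 4, and its part in the spread was not tested.

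Among the lists, 12 of 22 other gluconeogenic genes were called lower in dediHeps than in FH and 1 higher, Pck2 (66.0 to 165 CPM, log2 fold change 3.82, SE 0.56, adjusted p = 0.000267). For cyclic AMP signalling 4 of 14 were lower and 0 higher, for the regulators 8 of 19 were lower and 0 higher, and for glycolysis 4 of 10 were lower and 4 higher, and the list medians were -2.17 for the gluconeogenic genes, -1.49 for the regulators and 1.56 for glycolysis beside 0.08 over all genes. Onecut1, a factor of liver development, was at 60.2 to 246 CPM in FH and 0.559 to 3.62 CPM in dediHeps (log2 fold change -5.96, SE 0.55, adjusted p = 1.17e-05).

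A comparison of dediHeps with hepatocytes cultured for 2 weeks was added after the values were seen, to place Ppargc1a. It was at 1.07, 0.586 and 2.32 CPM after 2 weeks, so no 2 weeks library reached the lowest dediHep library at 25.7 CPM. The log2 fold change was 4.78 (SE 0.50, adjusted p = 0.000506). Gpt was also called (1.16 to 4.69 CPM after 2 weeks, log2 fold change 3.83, SE 1.06, adjusted p = 0.0446), but the ranges overlap in dediHep replicate 1, and the call was lost without any single one of the 3 libraries of 2 weeks (adjusted p = 0.145 to 0.179). Of 11167 genes, 3.84% were called higher in dediHeps and 2.09% lower. Of the other 5 members only Pcx could be tested (log2 fold change 1.48, SE 0.68, adjusted p = 0.18).

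**Figure D4:**
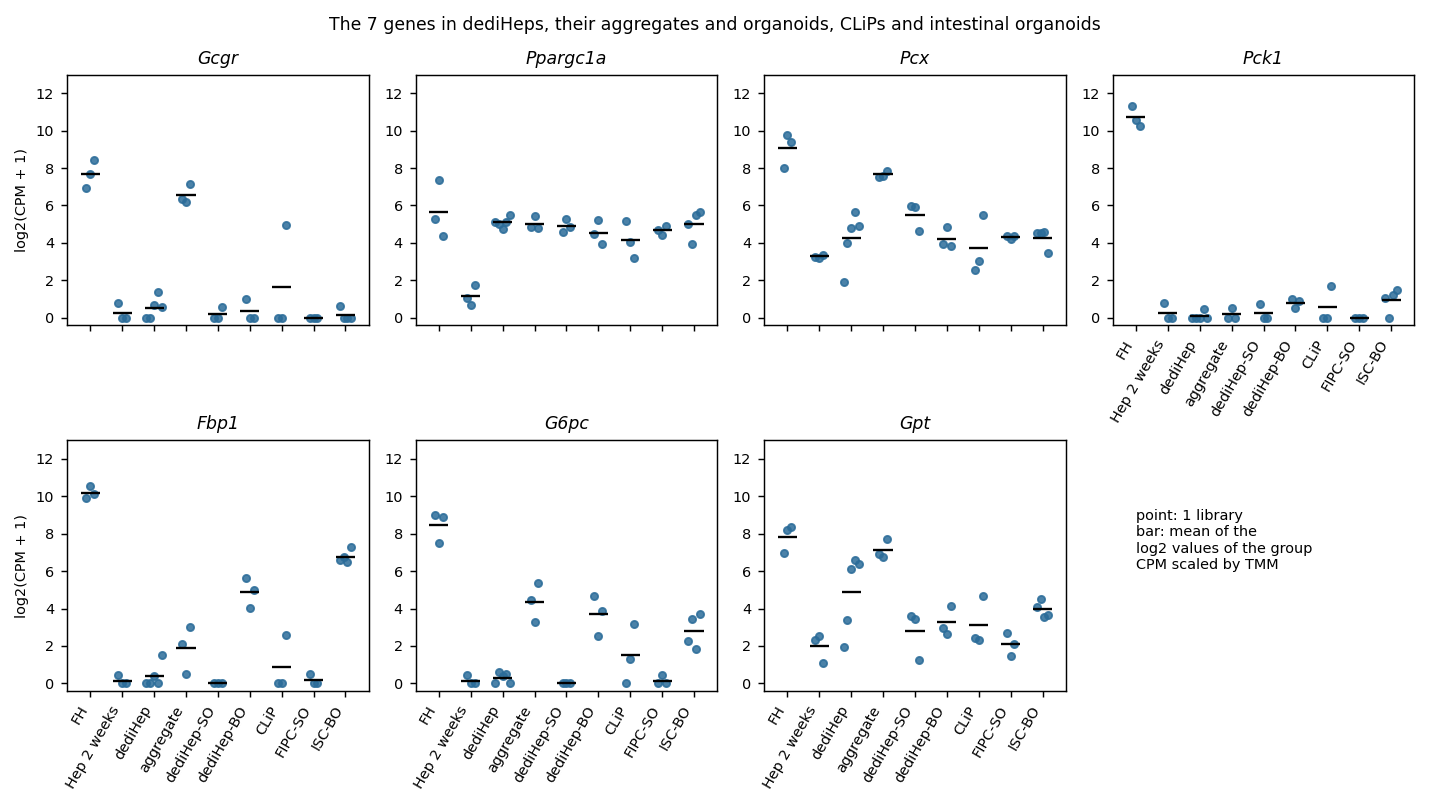
Level of the 7 genes as log2(TMM-scaled CPM + 1) in FH and 2-week hepatocytes beside the dediHep groups, CLiPs and the organoids of intestinal origin, with 1 point per library and a bar at the mean of the log2 values. Gcgr is at 71.6 to 139.9 CPM in aggregates and at most 1.58 CPM in dediHeps, while Ppargc1a lies between 8.14 and 49.8 CPM in every group from dediHeps to ISC-BOs.

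Aggregation was used to bring dediHeps back toward hepatocytes, and the aggregates were compared with dediHep monolayers to ask which genes return. The study's methods kept aggregates in a medium for induced hepatocyte-like cells and monolayers in one for hepatic progenitor cells. Growth form and medium thus cannot be told apart. Of the 7 genes, 3 were called higher in aggregates (Gcgr, G6pc and Pcx) and 0 lower, beside 4.39% of 11265 genes called higher and 5.11% lower. Gpt and Ppargc1a were tested and not called, and Pck1 and Fbp1 did not pass the filter on low counts. The hepatocyte marker sum was 8921 to 13430 CPM in aggregates against 1070 to 4766 CPM in monolayers, and its part in these changes was not tested.

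Gcgr was at 81.5, 71.6 and 139.9 CPM in the 3 aggregates and at 0, 0, 0.604, 1.58 and 0.473 CPM in the 5 monolayers. The groups are far apart. The log2 fold change was 7.26 (SE 0.62, adjusted p = 0.00014). Against FH the aggregates stood at 44.3% of the mean, with 1 aggregate inside the FH range (log2 fold change -1.26, SE 0.44, adjusted p = 0.0549), short of the fold threshold.

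G6pc was at 21.0, 8.68 and 40.7 CPM in aggregates and at 0 or 1 count in each monolayer. No library overlaps, and the log2 fold change was 6.24 (SE 0.73, adjusted p = 0.00063), with a pooled ratio of 89.5 (95% counting interval 29.9 to 439.7) because the monolayers held 3 counts. It remained well below FH, at 6.0% of the FH mean (log2 fold change -4.16, SE 0.62, adjusted p = 0.000663). Pcx was at 182, 193 and 229 CPM in aggregates, above all monolayers (log2 fold change 3.03, SE 0.59, adjusted p = 0.0089), and at 33.6% of the FH mean (log2 fold change -1.66, SE 0.44, adjusted p = 0.0168).

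Gpt was at 119, 107 and 209 CPM in aggregates, all above the highest monolayer at 96.3 CPM, yet the log2 fold change of 1.49 (SE 0.80, adjusted p = 0.216) was not called. The labels name the culture of each aggregate and monolayer, and with culture as a replicate block the change of Gpt was 3.08 (SE 0.70, adjusted p = 0.0171), which is called. In the 3 cultures that were sampled both ways Gpt went from 2.79 to 119 CPM, from 9.54 to 107 CPM and from 96.3 to 209 CPM. All 3 moved the same way, the first the most. Against FH, Gpt in aggregates was at 58.5% of the mean (log2 fold change -0.86, SE 0.43, adjusted p = 0.17).

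Pck1 did not return. It held 0, 1 and 0 counts in the 3 aggregates and 0, 0, 0, 1 and 0 in the monolayers, so both groups are at the floor, and against FH it was lower by a factor of 9633 (95% counting interval 1728 to 380600). Fbp1 held 4, 1 and 14 counts against 0, 0, 1, 0 and 4, a pooled ratio of 8.10 (2.92 to 27.7), and was called lower than in FH (log2 fold change -8.47, SE 0.74, adjusted p = 2.31e-05). Ppargc1a was at 27.4, 42.5 and 26.5 CPM in aggregates, within the range of the monolayers (log2 fold change -0.06, SE 0.32, adjusted p = 0.908).

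**Figure D5:**
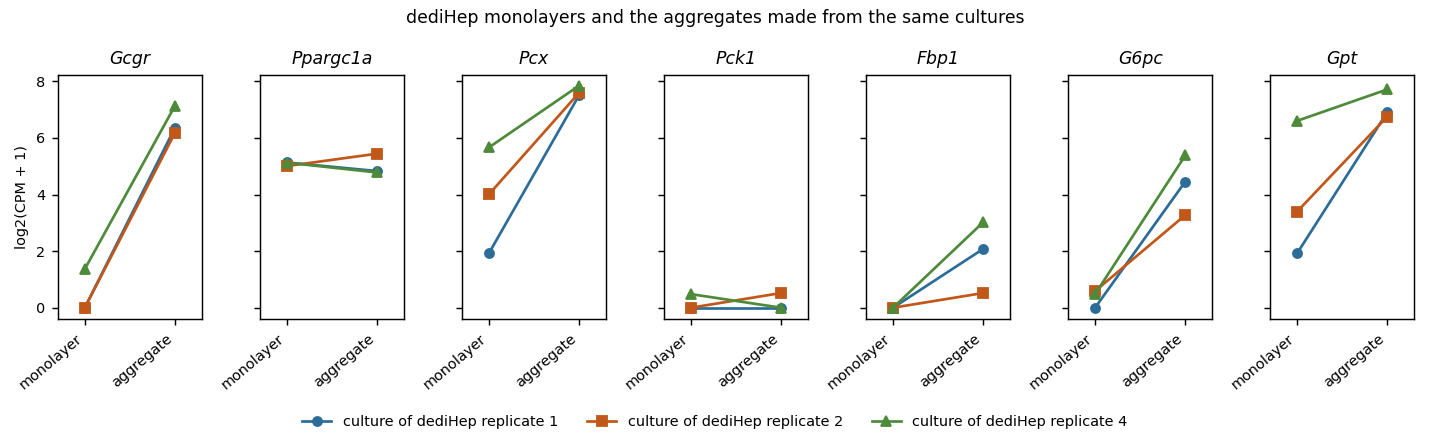
Level of the 7 genes as log2(TMM-scaled CPM + 1) in dediHep monolayers and in aggregates of the same named culture, with 1 line for each of 3 cultures. Gcgr, Pcx, Fbp1, G6pc and Gpt are higher in the aggregate in 3 of 3 cultures, Pck1 in 1 and Ppargc1a in 1. In the culture of dediHep replicate 2, Fbp1 and Pck1 each rest on 1 count in the aggregate (0.434 against 0 CPM), which is at the floor.

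In all, 3 of the 7 genes were called lower in aggregates than in FH (Pck1, Fbp1 and G6pc) and 0 higher, beside 6.78% of 9544 genes called higher and 9.78% lower. Among the lists, 5 of 20 other gluconeogenic genes were called higher in aggregates than in monolayers and 0 lower, with a median of 1.31 beside -0.07 over all genes. The largest was Slc2a2, the glucose transporter of hepatocytes, at 254 to 889.8 CPM in aggregates and 1.68 to 35.0 CPM in monolayers (log2 fold change 5.69, SE 0.82, adjusted p = 0.00201). Creb3l3 rose too, from 5.03 to 119 CPM to 459 to 944 CPM (log2 fold change 3.36, SE 0.64, adjusted p = 0.00856). It was the only gene of 13 tested from the cyclic AMP list called higher, and Nr4a1 was called lower (log2 fold change -3.52, SE 1.11, adjusted p = 0.0564). Of the list of regulators 3 of 17 genes were higher and 0 lower, among them the secreted protein gene Igfbp1 (log2 fold change 3.78, SE 1.20, adjusted p = 0.0583). Of the glycolysis list 3 of 10 genes were higher and 0 lower, with a median of -0.24. The largest rise was that of Gckr, which encodes the regulatory protein of glucokinase and not a glycolytic enzyme (log2 fold change 4.86, SE 0.86, adjusted p = 0.00567). Against FH, Pck2 remained higher in aggregates (110 to 156 CPM, log2 fold change 4.12, SE 0.54, adjusted p = 0.000292) and Tat lower (log2 fold change -6.24, SE 1.24, adjusted p = 0.00367).

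dediHep-SOs, grown in an intestinal organoid medium, were compared with dediHep monolayers. None of the 3 testable members (Pcx, Gpt and Ppargc1a) was called by edgeR, with Gpt alone at an unadjusted p under 0.05, beside 4.12% of 11470 genes called higher and 4.65% lower. Gpt was at 11.2, 9.92 and 1.39 CPM in the dediHep-SOs, where the last lies below the lowest monolayer and the others within the monolayer range (log2 fold change -2.76, SE 1.05, adjusted p = 0.125). It was called with DESeq2 (-2.77, adjusted p = 0.0234), without the low-count filter (-2.76, adjusted p = 0.0362), with all libraries in 1 fit (-2.76, adjusted p = 0.00314) and without dediHep replicate 1 (-3.06, adjusted p = 0.0248), and not with culture as a block (-1.34, adjusted p = 0.488). Pcx was at 62.0, 59.5 and 23.6 CPM (log2 fold change 0.97, SE 0.64, adjusted p = 0.379) and Ppargc1a at 23.1, 37.7 and 27.3 CPM (log2 fold change -0.21, SE 0.32, adjusted p = 0.721).

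The dediHep-SOs held 0 counts of G6pc and of Fbp1 in any library, 1 count of Gcgr and 2 of Pck1. These 4 genes were thus at the counting floor, as in the monolayers. Among the lists, 5 of 20 other gluconeogenic genes were called lower than in dediHeps and 0 higher, and Creb3l3 was down to 7 counts (log2 fold change -6.04, SE 1.09, adjusted p = 0.00469). Of the regulators 3 of 16 were lower and 0 higher, and of the glycolytic genes 2 of 8 were higher and 0 lower, led by Pfkfb3 (log2 fold change 2.29, SE 0.58, adjusted p = 0.0267).

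The dediHep-BOs, which carry Cdx2, were compared with dediHep-SOs in a further comparison of the organoids. The study's methods also left Wnt3a and the Wnt agonist CHIR99021 out of the medium for budding growth, so the factor, the growth form and the medium cannot be told apart. Of the 7 genes, 2 were called higher, G6pc and Fbp1, and 0 lower, beside 5.6% of 11301 genes called higher and 5.68% lower. Fbp1 was at 48.0, 15.4 and 30.4 CPM (99, 35 and 73 counts) and G6pc at 24.7, 4.85 and 13.8 CPM (51, 11 and 33 counts) in the dediHep-BOs. Every dediHep-BO library is above every dediHep-SO library, since those had no counts. The adjusted p was 0.00044 for Fbp1 and 0.00253 for G6pc, and as the dediHep-SOs were at 0 the levels are at least 74.8-fold higher for Fbp1 and at least 34.3-fold higher for G6pc, taking 3 counts over the group as the limit. The intestinal marker sum was 2944 to 3351 CPM in dediHep-BOs against 490.3 to 623 CPM in dediHep-SOs, and the hepatocyte marker sum was 646.5 to 1115 CPM against 102 to 135 CPM. The part of either in these changes was not tested. In ISC-BOs, which come from intestine, the hepatocyte marker sum was 549 to 1277 CPM, so in organoids these markers do not stand for hepatocytes alone.

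Pcx went the other way, at 14.1, 27.3 and 13.3 CPM in dediHep-BOs, with ranges that overlap those of the dediHep-SOs (log2 fold change -1.37, SE 0.44, adjusted p = 0.0407), short of the fold threshold. Gpt (6.79, 5.29 and 16.7 CPM, log2 fold change 0.38, SE 0.66, adjusted p = 0.684) and Ppargc1a (20.9, 35.7 and 14.2 CPM, log2 fold change -0.28, SE 0.39, adjusted p = 0.605) were not called. Pck1 held 2, 1 and 2 counts and Gcgr 2, 0 and 0, both near the floor.

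Among the lists, 3 of 18 other gluconeogenic genes were called higher in dediHep-BOs and 0 lower. Creb3l3 rose from 7 counts to 228 to 296 CPM (log2 fold change 7.99, SE 0.58, adjusted p = 2.4e-05), and Sik1, a kinase that cyclic AMP induces, was lower (log2 fold change -2.57, SE 0.45, adjusted p = 0.0026). These 2 were the calls among 11 genes of the cyclic AMP list. Cebpa was the single call among 14 regulators (log2 fold change 2.35, SE 0.32, adjusted p = 0.000623), and Pklr, the pyruvate kinase of liver and intestine, the single call among 8 glycolytic genes (log2 fold change 2.84, SE 0.29, adjusted p = 0.000132).

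The organoids of intestinal origin give the level of these genes outside the liver lineage. ISC-BOs held Fbp1 at 94.1, 108, 89.4 and 154 CPM, and G6pc at 3.78, 10.03, 2.54 and 12.2 CPM, whereas the FIPC-SOs held 1 count of each over 3 libraries. The pooled ratio of ISC-BOs to FIPC-SOs was 956 for Fbp1 (95% counting interval 171 to 37780) and 62.4 for G6pc (10.8 to 2501), and no library overlaps for either gene. A test of ISC-BOs against FIPC-SOs was added after the values were seen. Of 4 members tested, 2 were called higher and 0 lower. Fbp1 was called (adjusted p = 1.28e-05), G6pc and Pck1 did not pass the filter, Gcgr was at 1 count in all, and Gpt was called (15.7, 22.2, 10.6 and 11.8 CPM against 5.46, 1.75 and 3.21 CPM, log2 fold change 2.09, SE 0.45, adjusted p = 0.0109), beside 4% of 11644 genes called higher and 2.62% lower. Without FIPC-SO replicate 2 or ISC-BO replicate 2 the change of Gpt was 1.78 or 1.84, under the fold threshold. Pcx (log2 fold change -0.02, SE 0.33, adjusted p = 0.981) and Ppargc1a (0.45, SE 0.39, adjusted p = 0.558) were not called. The hepatocyte marker sum was 549 to 1277 CPM in ISC-BOs against 156 to 237 CPM in FIPC-SOs, and the intestinal marker sum was 2836 to 3570 CPM against 958 to 1422 CPM. The part of either in these changes was not tested.

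The dediHep-BOs were set against ISC-BOs, and none of the 5 testable members was called by edgeR or DESeq2, with Fbp1 alone at an unadjusted p under 0.05, beside 1.34% of 11303 genes called higher and 1.71% lower. Fbp1 came nearest. Its dediHep-BO libraries, at 15.4 to 48.0 CPM, all lay below the ISC-BO libraries, at 89.4 to 154 CPM (log2 fold change -1.80, SE 0.39, adjusted p = 0.0216), and without dediHep-BO replicate 1 the change of Fbp1 was -2.25 and was called. The other changes were 1.02 for G6pc (SE 0.60, adjusted p = 0.325), -0.03 for Pcx (SE 0.37, adjusted p = 0.968), -0.61 for Gpt (SE 0.44, adjusted p = 0.426) and -0.53 for Ppargc1a (SE 0.44, adjusted p = 0.485), each with overlapping libraries. The only call in the 4 lists was Irs1, an adaptor of insulin signalling (log2 fold change 3.81, SE 0.64, adjusted p = 0.0063).

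The dediHep-SOs were set against FIPC-SOs in the same way, and none of the 3 testable members was called by edgeR or DESeq2, with Pcx alone at an unadjusted p under 0.05, beside 4.92% of 11608 genes called higher and 3.99% lower. Pcx was at 62.0, 59.5 and 23.6 CPM against 19.5, 17.2 and 19.9 CPM, with no overlap (log2 fold change 1.32, SE 0.40, adjusted p = 0.0489), short of the fold threshold. Gpt (log2 fold change 1.09, SE 0.70, adjusted p = 0.322) and Ppargc1a (24.6, 20.7 and 29.2 CPM in FIPC-SOs, log2 fold change 0.20, SE 0.33, adjusted p = 0.719) overlapped. Pck1, G6pc, Fbp1 and Gcgr were at 0 to 2 counts over each group. Among the lists, Gpd1, a glycerol phosphate dehydrogenase, was higher in dediHep-SOs (122 to 172 CPM against 0.321 to 4.56 CPM, log2 fold change 6.30, SE 0.72, adjusted p = 0.000466).

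CLiPs are the other expandable cell made from hepatocytes, and they were set against FH and against dediHeps. Against FH 6 of the 7 genes were called lower and Ppargc1a was not, beside 13.1% of 10445 genes called higher and 11.4% lower, and the same 6 genes were called without CLiP replicate 3. Most of what remained lay in that library. It held 67 of 67 Gcgr counts, 11 of 11 Fbp1 counts, 5 of 5 Pck1 counts and 18 of 25 G6pc counts. Pcx was at 4.93, 7.15 and 44.3 CPM and Gpt at 4.44, 3.99 and 24.4 CPM, again highest in replicate 3, while Ppargc1a was at 35.0, 15.8 and 8.14 CPM and lowest there.

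The log2 fold change of CLiPs against FH was -4.42 for Gcgr with all 3 libraries (SE 1.57, adjusted p = 0.0629). The call of Gcgr was lost with DESeq2 (adjusted p = 0.222) and without CLiP replicate 1, FH replicate 2 or FH replicate 3 (adjusted p = 0.133 to 0.137). For Pck1 the pooled level was lower by a factor of 3147 (95% counting interval 1347 to 9696), and for Fbp1 by 967 (539.7 to 1940). The changes were -6.89 for G6pc (SE 1.13, adjusted p = 0.00225), -4.94 for Pcx (SE 0.96, adjusted p = 0.00477) and -4.45 for Gpt (SE 0.82, adjusted p = 0.00371). Ppargc1a gave -1.83 (SE 0.83, adjusted p = 0.134), and -2.31 (adjusted p = 0.0743) without FH replicate 3, which is called.

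Against dediHeps none of the 3 testable members was called in CLiPs by edgeR or had an unadjusted p under 0.05, beside 1.65% of 11567 genes called higher and 1.39% lower. Pcx gave -0.36 (SE 0.86, adjusted p = 0.868), Gpt -2.21 (SE 1.08, adjusted p = 0.332) and Ppargc1a -0.77 (SE 0.46, adjusted p = 0.435). The ranges overlap for all 3. Without CLiP replicate 3 the values were -1.99 for Pcx, -3.60 for Gpt and -0.40 for Ppargc1a, and none was called. With all 49 libraries in 1 fit, 3 members were called, Gpt lower (-2.28, adjusted p = 0.0172) and G6pc (3.31, adjusted p = 0.0429) and Gcgr (3.92, adjusted p = 0.00437) higher, the latter pair with most or all of their CLiP counts in replicate 3. The one call in the 4 lists was the amino acid transporter Slc7a2, higher in CLiPs (35.3 to 134 CPM against 6.65 to 34.7 CPM, log2 fold change 2.24, SE 0.58, adjusted p = 0.0771). Against FH, 10 of 22 other gluconeogenic genes were called lower in CLiPs and 2 higher. For cyclic AMP signalling 4 of 13 were lower and 0 higher, and for the regulators 8 of 19 were lower and 0 higher. For glycolysis 2 of 9 were lower and 3 higher, and over all genes 11.4% were lower and 13.1% higher. Among the 2 gluconeogenic genes called higher was Pck2 (78.2 to 127 CPM, log2 fold change 3.93, SE 0.61, adjusted p = 0.00174). Pck2 was at 41.7 to 182 CPM in every library of dediHeps, aggregates, CLiPs and organoids.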

How the data were processed

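The deposited table holds UMI counts per gene, made by the authors with CEL-Seq2. The submitters' processing notes name bcl2fastq 2.20, Bowtie2 2.3.1, HTSeq 0.6.0 and GRCm38, and the annotation release is not given in the sources used here. The counts were used as deposited. CPM were computed from them with TMM factors over all 49 libraries. Library totals ran from 861047 to 3872936 counts. Differences were tested with edgeR 4.0.16 (R 4.3.3) by its quasi-likelihood test after filterByExpr (minimum count 10), with Benjamini-Hochberg adjustment over all genes tested. FH and the 6 time points shared 1 fit, and other comparisons used their 2 groups. A call needed an adjusted p under 0.1 and a log2 fold change over 2 in size. The SE given is the size of the log2 fold change divided by the square root of its F statistic. It was not estimated separately, and it is rough where a group was near 0 counts. Pooled count ratios carry exact 95% intervals for counting error only.

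The members and the 4 gene lists were chosen with earlier results of these data known. Every member is described, and of each list the called gene with the largest change in each direction was eligible to be named per comparison. A few genes that this rule names are not reported here. The comparisons of dediHep with 2 weeks and of ISC-BO with FIPC-SO were added after the data were seen. Alternatives were DESeq2 1.42.0, RLE factors, no low-count filter, all 49 libraries in 1 fit, a correction for repeated UMIs, a replicate block and leaving out each library. The labels name the cultures that aggregates and dediHep-SOs came from. Deviations from the group means correlated between samples of the same culture at r = 0.17 to 0.323 over 3 pairs for aggregates. For dediHep-SOs they did so at -0.437 to 0.019. Pairs matched only by replicate number in the other comparisons ran from -0.544 to 0.495, so these values do not show that a shared culture makes libraries deviate together.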

Additional observations from a re-analysis of the deposited data

Results flagged for a closer look

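The 7 genes in dediHeps (5 libraries) and ISC-BOs (4 libraries) gave 14 sets of values, and in 4 of them 1 library stood farther from the others than the 95% limit of Dixon's test. For measured values chance alone exceeds that limit in about 1 of 20 sets, but 3 of the 4 rest on 1 to 4 counts among libraries at or near 0, where single counts set the outcome and that rate does not apply. Pck1 was at 0.395 CPM, or 1 count, in dediHep replicate 4 and at 0 in the other 4. Fbp1 was at 1.89 CPM, or 4 counts, in dediHep replicate 5 and at 0 or 1 count in the other 4. Gcgr was at 0.541 CPM, or 1 count, in ISC-BO replicate 1 and at 0 in the other 3. Pcx was at 10.05 CPM (23 counts) in ISC-BO replicate 4 and at 21.6 to 22.9 CPM in the other 3.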

How the results depend on the processing

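Of the log2 fold changes of members recomputed under the alternatives, 1193 kept their direction and their side of the threshold, 12 gained and 14 lost the call and 29 changed sign. Counting error limits Pck1, G6pc, Fbp1 and Gcgr wherever a group held few counts. The causes of the changes below were not tested.

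The number of all genes called moved by over 1.5 times without the low-count filter, to 4481 (dediHep against FH), 1608 (aggregate against dediHep), 3007 (aggregate against FH), 1652 (dediHep-SO against dediHep), 2385 (dediHep-BO against dediHep-SO), 2052 (dediHep-SO against FIPC-SO), 798 (dediHep-BO against ISC-BO), 714 (CLiP against dediHep), 4103 (CLiP against FH), 90 (verteporfin against DMSO), 1550 (dediHep against 2 weeks) and 1504 (ISC-BO against FIPC-SO). With all libraries in 1 fit it was 1805, 2725, 1678, 1953 and 1558 for aggregate against dediHep, aggregate against FH, dediHep-SO against dediHep, dediHep-BO against dediHep-SO and dediHep-SO against FIPC-SO, 1169 for CLiP against dediHep, 0 for verteporfin and 1303 for dediHep against 2 weeks. With DESeq2 it was 2382 (aggregate against FH), 1552 (dediHep-SO against FIPC-SO), 540 (dediHep-BO against ISC-BO), 726 (CLiP against dediHep), 1027 (dediHep against 2 weeks) and 1166 (ISC-BO against FIPC-SO). Leaving out 1 library gave 620 to 1527 genes at 3 h, 1234 to 2108 for dediHep-BO against dediHep-SO, 1023 to 1716 for dediHep-SO against FIPC-SO, 109 to 488 for CLiP against dediHep, 33 to 106 for verteporfin and 285 to 766 for dediHep against 2 weeks.

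The number of members called moved to 1 for dediHep-SO against dediHep with DESeq2, without the filter and with all libraries, to 3 for CLiP against dediHep with all libraries, and to 4 for ISC-BO against FIPC-SO both without the filter and with all libraries. Leaving out 1 library gave 0 to 1 members at 3 h, for dediHep-SO against dediHep and for dediHep-BO against ISC-BO, 1 to 2 for dediHep against 2 weeks and 1 to 3 for ISC-BO against FIPC-SO.

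Outside the cultures, samples of different groups share only a number. A replicate block by that number gave 59 genes for verteporfin, 1 member for dediHep against 2 weeks (Gpt lost, 1.75, adjusted p = 0.214), and changes of Pcx of 0.14 for CLiP against dediHep and 0.19 for ISC-BO against FIPC-SO. A replicate block by library number gave 264 genes at 3 h, with G6pc at -0.21 and Gpt at -0.018. For Pcx in ISC-BO against FIPC-SO, DESeq2 gave 0.0055 and all libraries 0.0149.

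Leaving out 1 library turned these uncalled changes: at 3 h G6pc (-0.19 to 0.38), Pcx (-0.52 to 0.21) and Gpt (-0.11 to 0.46). For Ppargc1a the ranges were -1.67 to 0.13 in dediHep against FH, -0.30 to 0.070 in aggregate against dediHep, -1.73 to 0.054 in aggregate against FH, -0.66 to 0.024 in dediHep-BO against dediHep-SO and -0.012 to 0.37 in dediHep-SO against FIPC-SO. Gpt ran from -0.25 to 0.84 in dediHep-BO against dediHep-SO, and Pcx from -0.43 to 0.14 in dediHep-BO against ISC-BO, from -1.99 to 0.086 in CLiP against dediHep and from -0.11 to 0.19 in ISC-BO against FIPC-SO.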
